A study of Mus musculus with 6 samples.

Results

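The transcripts described here encode the 6 catalytic subunits of the COMPASS complexes, which methylate histone H3 at lysine 4 (H3K4): Setd1a, Setd1b, Kmt2a, Kmt2b, Kmt2c and Kmt2d. They were chosen by name for their catalytic role and are 6 of the 55471 genes in the count table. The choice used no measured values, but earlier results of these data were known when it was made. All 6 passed the filter on low counts, as did 13044 genes in all. The counts came from 6 libraries of total RNA of a cultured mouse undifferentiated pleomorphic sarcoma (UPS) line, a soft-tissue tumour line labelled as metastatic. There were 3 libraries labelled wild type (control) and 3 labelled as a Setd1a knockout, numbered 1 to 3 in each group. All were grown in the same serum-supplemented medium. The sources used here do not say how the knockout was made, whether its cells were a single clone or a pool, or whether the libraries of a group came from separate cultures. The p-values therefore measure only the spread between these libraries, which may be technical. A tag in the titles also differs between the groups, AAV2 in the controls and a numeric code in the knockouts. Its meaning is not given, so whatever it stands for and the knockout cannot be told apart. In bulk RNA, fewer cells with a transcript and less of it per cell cannot be told apart.

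Each of these enzymes works inside a multi-subunit complex and carries its catalytic SET domain at the C-terminal end of the protein. Setd1a and Setd1b complexes place most of the trimethyl mark at active promoters, Kmt2a and Kmt2b (also called MLL1 and MLL2) act at CpG-rich promoters including those of Hox genes, and Kmt2c and Kmt2d (MLL3 and MLL4) place the monomethyl mark at enhancers. The genes form related pairs, and loss-of-function changes in several of them recur in tumours.

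The family relation is shown by the end of the coding sequences, the post-SET stretch that follows the catalytic core. The last 51 coding bases, stop codon included, are given 5′ to 3′ from the longest complete coding transcript of each gene (GENCODE M21, GRCm38), with capitals at the 20 positions where all 6 genes have the same base in an ungapped comparison counted back from the stop codon.
Setd1a: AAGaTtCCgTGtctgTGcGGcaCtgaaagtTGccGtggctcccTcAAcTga
Setd1b: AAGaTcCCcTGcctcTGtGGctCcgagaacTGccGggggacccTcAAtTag
Kmt2a: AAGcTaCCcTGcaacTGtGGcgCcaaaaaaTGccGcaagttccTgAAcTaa
Kmt2b: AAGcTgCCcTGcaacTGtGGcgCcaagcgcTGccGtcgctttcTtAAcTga
Kmt2c: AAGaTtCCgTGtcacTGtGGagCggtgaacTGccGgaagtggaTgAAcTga
Kmt2d: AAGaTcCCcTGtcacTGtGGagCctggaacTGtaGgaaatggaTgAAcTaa
These stretches lie at chr7:127799429-127799479 (plus strand) for Setd1a, chr5:123165956-123166006 (plus) for Setd1b, chr9:44807902-44807952 (minus) for Kmt2a, chr7:30569161-30569211 (minus) for Kmt2b, chr5:25273666-25273716 (minus) for Kmt2c and chr15:98834500-98834550 (minus) for Kmt2d, each within 1 coding exon. Over the 51 bases, Kmt2c and Kmt2d matched at 42, Kmt2a and Kmt2b at 39, and Setd1a and Setd1b at 35. Setd1a and Kmt2d were the least alike, with 27 matches. Across whole annotated transcripts, the longest exact run shared by any of the 15 pairs was 37 bases, between Kmt2c and Kmt2d, and Setd1a shared at most 24 bases with any other member, its pair partner Setd1b. Only a read that fitted inside such a run could match 2 members equally well. The sources used here do not give the read length.

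Total counts per library lay between 17749533 and 18272622. Levels are given as CPM, counts scaled to the effective size of each library. Of the mesenchymal markers of a sarcoma, 10 of 10 were tested. A log2 change below 0 was found in 9 of 10, against 49.8% of all tested genes. The 10 markers had log2 changes from -0.43 to 0.18, with a median of -0.19. They summed to between 8859 and 9302 CPM in the control libraries against 7593 to 8813 in the knockouts, with vimentin (Vim) at 6146 ± 467 and 5429 ± 347 CPM (SD, n = 3). Col1a1 was at 37.4 ± 14.0 and 35.6 ± 17.9 CPM (SD, n = 3). The 7 leukocyte markers summed to at most 15.2 CPM, of which Cd68 gave most, with Ptprc under 1 CPM and Adgre1 and Cd3e at 0 counts. The 5 endothelial markers summed to at most 3.25 CPM and the 6 skeletal muscle markers to at most 1.65 CPM, with Myod1, Myog, Myf5 and Ckm at 0 counts. Of the 7 epithelial markers, Krt18 was at 60.04 ± 16.6 and 55.6 ± 15.4 CPM (SD, n = 3) while Epcam and Cdh1 were under 1 CPM. This list summed to 52.9 to 91.4 CPM in the control libraries against 50.1 to 95.6 in the knockouts. Krt19, at 2.05 to 9.07 CPM, was its 1 gene called with the replicate number as a block (edgeR, adjusted p = 0.0327). That fit called 2.28% of all tested genes. The groups of Krt19 overlapped, and without the block its adjusted p was 0.485 in edgeR's test. The part of these markers in the values below was not tested.

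Setd1a, the gene named in the knockout label, was the member with the lowest level in the knockouts relative to the controls, and its transcript was present in every library, those labelled knockout included (ENSMUSG00000042308; GRCm38 chromosome 7, from 127776670 to 127800122 on the plus strand). The control libraries held 1283, 1349 and 1311 counts and the knockout libraries 967, 1237 and 1023 counts, or 71.0, 75.3 and 73.5 against 53.2, 68.7 and 56.3 CPM. All 3 knockout libraries lay below all 3 controls, and knockout replicate 2 was the closest to them. The means were 73.3 ± 2.17 and 59.4 ± 8.17 CPM (SD, n = 3). The fold of 0.811 had a 95% interval of 0.675 to 0.973, not adjusted for the number of genes. In edgeR's quasi-likelihood test the unadjusted p was 0.0281 and the Benjamini-Hochberg adjusted p 0.426. The exact two-sided permutation p was 0.1, the smallest that 3 against 3 can give. Of all tested genes, 8.49% had a log2 change at or below that of Setd1a, and 7.77% had all knockout libraries below all controls. The control libraries differed little, with a coefficient of variation of 2.97%. The knockout libraries varied by 13.8%, against the 3.22% that counting alone gives at the 967 reads of knockout replicate 1. The edited site is not named in the labels. Read counts summed per gene show that RNA from at least part of Setd1a was made, but not which part. They do not check the loss of its protein. The libraries are called knockouts here by their label.

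The count table does not resolve exons, and which part of the Setd1a transcript was counted depends on an overlapping gene. The predicted protein-coding gene Gm49388 lies on the same strand and contains 11 of the 19 exons of the longest complete coding Setd1a transcript; the first 6 exons lie outside it and 2 are shared in part. All 51 of the bases printed above for Setd1a, the end of its catalytic region, lie in the shared part. Gm49388 held 1 count in all 6 libraries together, so reads from the shared exons were not assigned to it. The sources used here do not say whether they were assigned to Setd1a or left out. If they were left out, the Setd1a counts come from 2964 of the transcript's 6487 bases, mainly the first 7 exons and the end of the last. Exonic sharing with other genes was 0% for Setd1b, Kmt2b and Kmt2d, 2.27% for Kmt2a and 1.35% for Kmt2c, with antisense or unclassified genes on the opposite strand.

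Setd1b, the closest relative of Setd1a and the catalytic subunit of the sister complex, differed between the groups by less than its own spread (ENSMUSG00000038384, chromosome 5, 123142193 to 123168629, plus strand). Its control libraries held 43.5, 39.8 and 40.8 CPM, and its knockout libraries 45.7, 42.2 and 30.4 CPM. Knockout replicate 2 lay inside the control range, replicate 1 just above it, and replicate 3 lay below every other library. The fold was 0.954, with a 95% interval of 0.756 to 1.20 (edgeR, adjusted p = 0.957). Without knockout replicate 3 the log2 change turned from -0.07 to 0.09 (edgeR, adjusted p = 0.790). Counted per kb of all annotated exons, the ratio of Setd1a to Setd1b within a library was 2.90, 3.36 and 3.20 in the controls. In the knockouts it was 2.07, 2.89 and 3.29. Were the reads shared with Gm49388 left out, all of these ratios would be higher by the same factor, with their order between libraries kept. These ratios overlapped between the groups: replicate 3 of the knockout, low in both genes, kept a ratio inside the control range, and replicate 1, low in Setd1a alone, had the lowest ratio of all.

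Kmt2a, the MLL1 gene that is rearranged in human leukaemias, had the highest counts of the 6 (ENSMUSG00000002028, chromosome 9, 44803355 to 44881296, minus strand). Its levels were 178, 147 and 151 CPM across the controls and 183, 169.8 and 151 CPM across the knockouts, so the groups overlapped along nearly their whole range. The fold was 1.06, with a 95% interval of 0.884 to 1.27 (edgeR, adjusted p = 0.924). Its paralogue Kmt2b (ENSMUSG00000006307, chromosome 7, 30568858 to 30588726, minus strand) lies on the same chromosome as Setd1a. It stood at 110.5, 92.1 and 108 CPM in control replicates 1 to 3 and at 114, 105 and 90.9 CPM in the knockout replicates. The group means were 103 ± 9.93 and 103 ± 11.7 CPM (SD, n = 3), and the fold was 0.999, with a 95% interval of 0.831 to 1.20 (edgeR, adjusted p = 0.9996). The direction of so small a value has no weight, and it turned with the filter and with several left-out libraries. The ratio of Kmt2b to Kmt2a per kb stayed between 1.05 and 1.24 in all 6 libraries.

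Kmt2c and Kmt2d have the longest coding sequences of the 6, 14715 and 16767 bases against 5151 for Setd1a. Kmt2c (ENSMUSG00000038056, chromosome 5, 25271798 to 25498783, minus strand) held 41.6, 34.4 and 31.0 CPM across the controls and 44.1, 38.2 and 33.3 CPM across the knockouts. Each knockout library was above the control of the same number, yet the groups overlapped, because the spread within a group was wider than the shift. The fold was 1.08, with a 95% interval of 0.860 to 1.36 (edgeR, adjusted p = 0.913). Kmt2d (ENSMUSG00000048154, chromosome 15, 98831669 to 98871204, minus strand) stood at 104, 97.0 and 97.7 CPM in control replicates 1 to 3 and at 138, 127 and 82.0 CPM in the knockout replicates. Knockout replicates 1 and 2 were above every control and replicate 3 below every control, the widest disagreement within a group among the 6 genes. The fold was 1.16, with a 95% interval of 0.894 to 1.51 (edgeR, adjusted p = 0.776). The log2 change of 0.22 became 0.41 without knockout replicate 3 and 0.07 without knockout replicate 1, with adjusted p-values of 0.213 and 0.989 in edgeR's test. The coefficient of variation of Kmt2d was 3.95% in the controls and 25.7% in the knockouts, against 2.59% from counting alone in its lowest library.

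**Figure D1:**
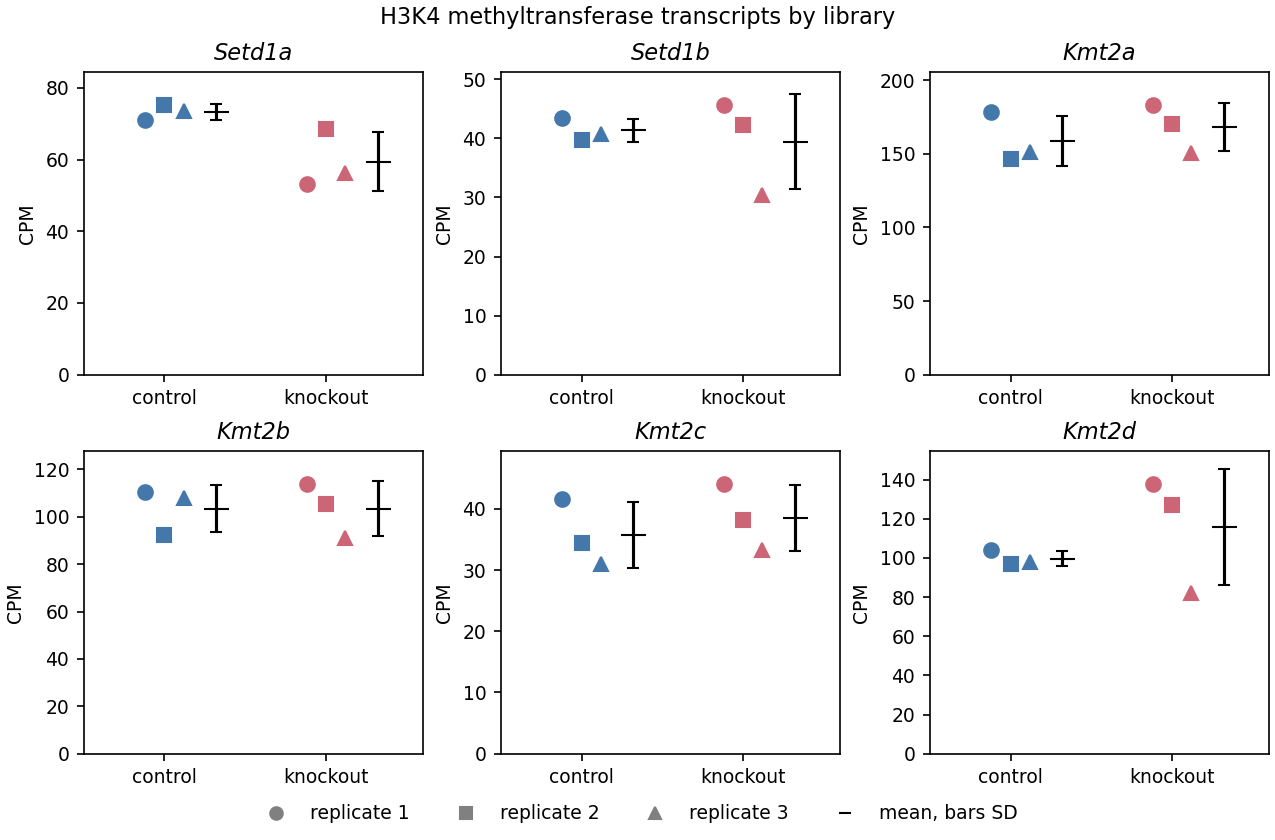
CPM of the 6 methyltransferase genes in each library, by group, with replicate numbers as symbols and the group mean and SD (n = 3) as a black bar. The knockout libraries of Setd1a lie between 53.2 and 68.7 CPM, below the controls at 71.0 to 75.3 CPM, while in the other 5 panels the groups overlap.

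Taking the 6 genes together, edgeR's quasi-likelihood test without pairing called 0 of them at an adjusted p under 0.05, against 0% of all tested genes. At an unadjusted p under 0.05 there was 1 of the 6, Setd1a, on the lower side, against 4.51% of all tested genes lower, 5.5% higher and 10% in either direction. Setd1a was also the 1 gene of 6 whose groups did not overlap, against 15.3% of all tested genes in either direction. Among 6 genes, 1 is not read as a departure from these shares. With the replicate number as a block, 0 of the 6 were called, against 2.28% of all tested genes (0.851% lower and 1.43% higher). Compared by replicate number, Setd1a was below its control in all 3 pairs, as 21.6% of tested genes were, and Kmt2c above it in all 3, as 19.9% were. The changes were split evenly, with 3 log2 changes below 0 and 3 above; their median was 0.04, and that of all tested genes was 0.00. A missed threshold does not show that the paralogues were unchanged. Their intervals bound the change: the highest upper bound among the 5 was 1.51-fold, for Kmt2d, and the lowest lower bound was 0.756-fold, for Setd1b.

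Levels can be compared between genes only per length, so CPM were divided by the kb of annotated exons. In the controls Kmt2b and Setd1a were highest, at 10.8 ± 1.03 and 10.8 ± 0.320 CPM per kb, followed by Kmt2a at 9.51 ± 1.02 (SD, n = 3). Kmt2d stood at 5.00 ± 0.198, Setd1b at 3.43 ± 0.160 and Kmt2c at 1.76 ± 0.267 CPM per kb (SD, n = 3). By these lengths the ranges of Kmt2b, Setd1a and Kmt2a overlapped one another, so their order is not resolved. The place of Setd1a also depends on the reads shared with Gm49388. Over the bases that no other gene shares, its control level was 22.6 CPM per kb, above the other 5 genes. The other neighbours in the order did not overlap: Kmt2d ran from 4.87 to 5.23, Setd1b from 3.29 to 3.60 and Kmt2c from 1.53 to 2.05 CPM per kb. For comparison, the median tested gene was at 5.59 CPM per kb in the controls, with quartiles of 1.51 and 16.0. Within each related pair one gene was the more abundant in every library: Setd1a over Setd1b, Kmt2b over Kmt2a by a narrow margin, and Kmt2d over Kmt2c, with a control ratio of 2.88 ± 0.331 and a knockout ratio of 3.02 ± 0.460 (SD, n = 3).

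In the knockouts Kmt2b averaged 10.8 ± 1.22, Kmt2a 10.1 ± 0.979 and Setd1a 8.74 ± 1.20 CPM per kb, with overlapping ranges, followed by Kmt2d at 5.80 ± 1.49, Setd1b at 3.27 ± 0.665 and Kmt2c at 1.90 ± 0.266 (SD, n = 3). These lengths count every annotated exon, used or not. If reads shared with Gm49388 were left out, the length open to Setd1a is 3.24 kb and not 6.80 kb, and its level becomes 22.6 ± 0.670 CPM per kb among controls and 18.31 ± 2.52 among knockouts (SD, n = 3), above the other 5 genes in both groups. The ratio between the groups does not depend on the length.

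**Figure D2:**
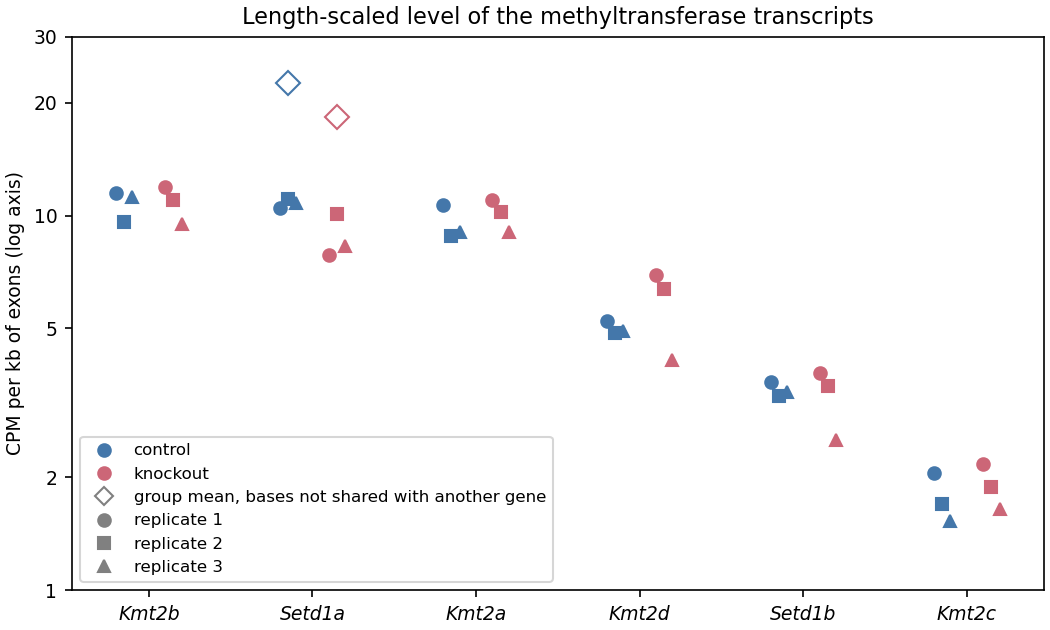
CPM per kb of annotated exons on a log axis for each of the 6 genes in the 3 control and 3 knockout libraries, ordered by the control mean. Open diamonds give the Setd1a group means (22.6 in the controls) over bases that no other gene shares; the filled points run from about the level of Kmt2c (1.76) to that of Kmt2b (10.8).

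The members differed in which knockout library was the lowest. Among the knockouts, Setd1b, Kmt2a, Kmt2b, Kmt2c and Kmt2d were each highest in replicate 1 and lowest in replicate 3. Setd1a was lowest in replicate 1, and also below its mean in replicate 3. In log2 CPM relative to the mean of all 6 libraries, knockout replicate 1 lay at 0.38 for Kmt2d, 0.26 for Kmt2c and 0.19 for Setd1b, and at -0.30 for Setd1a. Knockout replicate 3 lay at -0.37 for Kmt2d and -0.40 for Setd1b. All 6 genes have long exonic sequences, from 6.80 kb for Setd1a, which 24.5% of tested genes exceed, to 20.3 kb for Kmt2c. The other 1246 tested genes of at least 10 kb had median deviations of 0.09, 0.07 and -0.08 in knockout replicates 1, 2 and 3. Their control medians were 0.03, 0.02 and -0.10. The 4150 others of 5 to 10 kb, the class of Setd1a and Kmt2b, had 0.02, 0.04 and -0.03 in the knockouts. Their control medians were 0.01, 0.02 and -0.03. The 7631 genes under 5 kb had -0.02, -0.02 and 0.05 in the knockouts and 0.00, -0.01 and 0.06 in the controls. Long transcripts as a class were thus low in both libraries numbered 3, and the part of this in the values of the members was not tested. These length classes were chosen after the members' values had been seen.

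**Figure D3:**
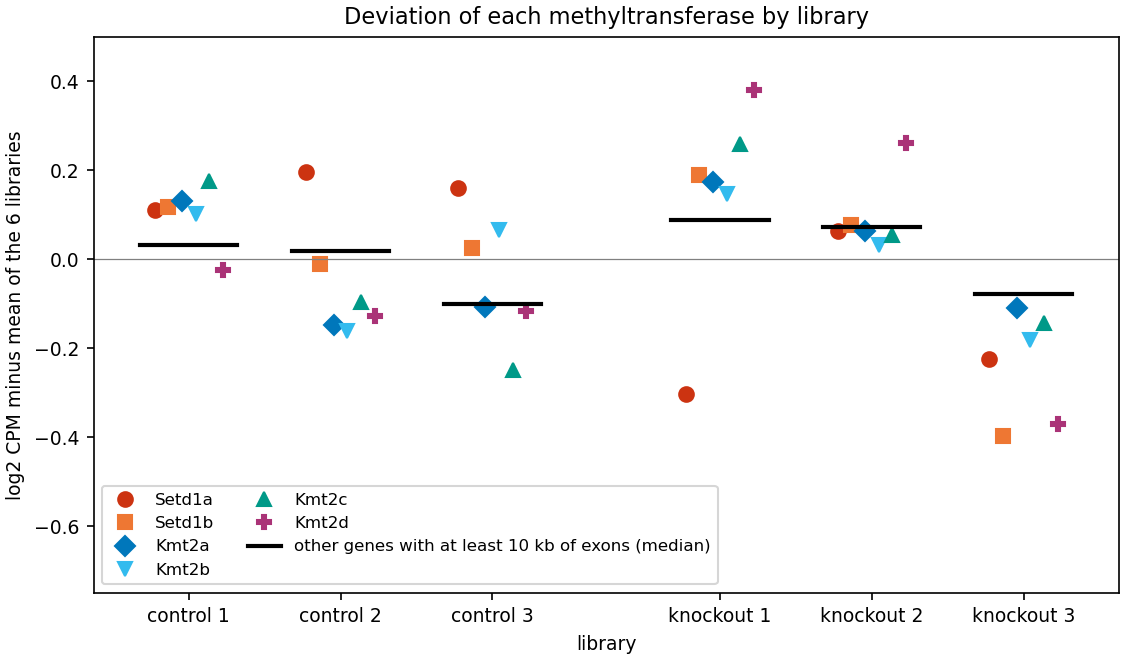
Log2 CPM of each methyltransferase minus its mean over the 6 libraries, by library, with a black bar for the median of the other genes with at least 10 kb of exons. Setd1a (6.80 kb) and Kmt2b (9.60 kb) lie outside that length class. In knockout replicate 1 Setd1a lies at -0.30 and the other 5 genes above 0; in knockout replicate 3 all 6 lie below 0.

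By the root-mean-square difference of such centred profiles, the shortest distances among the 15 pairs of members were 0.075 between Kmt2a and Kmt2c and 0.080 between Kmt2a and Kmt2b, against a median of 0.199 between Kmt2a and the 9502 eligible genes. Kmt2c ranked 62nd among those genes by likeness to Kmt2a and Kmt2b 87th. Setd1b lay 0.112 from Kmt2b, and Kmt2b lay 0.143 from Kmt2c. Kmt2d lay 0.171 from Kmt2a, farther than a flat profile is from Kmt2a (0.127). Setd1a lay 0.236 from Setd1b, which is also the median distance of all eligible genes from Setd1a, and 0.348 from Kmt2d. The genes most like Setd1a were Dnaja3, a mitochondrial co-chaperone, at 0.024, Pomt1, a protein O-mannosyltransferase, at 0.028 and Rnf123, a ubiquitin ligase, at 0.033. Dnaja3 stood at 70.6, 77.3 and 75.5 CPM across the controls and 54.2, 67.6 and 57.5 CPM across the knockouts, nearly the values of Setd1a library by library. With only 6 libraries such likeness is common: 170 of the 9502 genes lay within 0.1 of Setd1a. For the other members the closest genes were Jam3 for Setd1b (0.058), Arhgap42 for Kmt2a (0.021), Srrm1 for Kmt2b (0.025), Nrip1 for Kmt2c (0.041) and Adnp for Kmt2d (0.042). Next in likeness came Agap1 and Fryl for Setd1b, Dhx9 and Dst for Kmt2a, Tacc2 and Dtnbp1 for Kmt2b, Rbm26 and Meis2 for Kmt2c, and Lrp1 for Kmt2d.

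Of the subunits that build the complexes around these enzymes, 0 of the 15 tested passed edgeR's test without pairing, against 0% of all tested genes, or with the replicate block, against 2.28%. Of the core of Wdr5, Rbbp5, Ash2l and Dpy30, which every COMPASS complex shares and which activates the SET domain, 3 had a log2 change above 0 and 1 below, between -0.11 and 0.11. Ash2l went from 133 ± 2.10 to 143 ± 4.82 CPM (SD, n = 3; edgeR, adjusted p = 0.809), with all knockout libraries above all controls, as in 7.49% of tested genes. Dpy30 went from 60.02 ± 3.60 to 55.7 ± 3.80 CPM (SD, n = 3; edgeR, adjusted p = 0.850), with overlap.

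Of 5 subunits of the Setd1a and Setd1b complexes, 4 had a log2 change below 0, with a median of -0.09. Cxxc1, the CpG-binding subunit that brings these complexes to promoters, went from 95.2 ± 7.12 to 87.3 ± 9.38 CPM (SD, n = 3; edgeR, adjusted p = 0.827). Hcfc1, a host cell factor that joins several chromatin complexes, went from 519 ± 52.0 to 457 ± 111 CPM (SD, n = 3; edgeR, adjusted p = 0.835). Both overlapped between groups. Wdr82, Bod1 and Bod1l had log2 changes of -0.07, -0.09 and 0.05.

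Of 3 subunits of the Kmt2a and Kmt2b complexes, menin (Men1), which tethers these enzymes to chromatin, went from 108 ± 11.7 to 94.6 ± 11.5 CPM (SD, n = 3; edgeR, adjusted p = 0.708), and the chromatin reader gene Psip1 from 316 ± 78.9 to 299 ± 40.7 CPM (SD, n = 3; edgeR, adjusted p = 0.953). Of 4 subunits of the Kmt2c and Kmt2d complexes, 3 were tested. Ncoa6, a nuclear receptor coactivator, went from 117 ± 5.56 to 125 ± 8.17 CPM (SD, n = 3; edgeR, adjusted p = 0.877) and Kdm6a, which removes the repressive H3K27 methyl mark, from 45.5 ± 6.47 to 47.9 ± 2.20 CPM (SD, n = 3; edgeR, adjusted p = 0.936). The fourth, Pagr1a, is listed at 0 counts in every library; 98.7% of its exonic bases are shared with other genes, so its level is uncertain.

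The enzymes that remove H3K4 methylation went both ways. Of 5 tested demethylases, 3 had a log2 change below 0 and 2 above, and 0 passed edgeR's test in either form, against 0% and 2.28% of all tested genes. Kdm5a, which acts on the trimethyl mark, went from 63.5 ± 4.12 to 72.3 ± 2.36 CPM (SD, n = 3), and Kdm1a, which acts on mono- and dimethyl marks, from 104 ± 7.38 to 92.1 ± 4.68 CPM (SD, n = 3). For each of these 2 genes the groups did not overlap, in opposite directions, with adjusted p-values of 0.595 and 0.631 in edgeR's test; of all tested genes, 15.3% had groups that did not overlap. Kdm5d, a gene on chromosome Y, had 0 counts in every library. That allows a level of up to 0.169 CPM in the smallest library, for counting error only. Whether the line carries this chromosome was not tested.

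**Figure D4:**
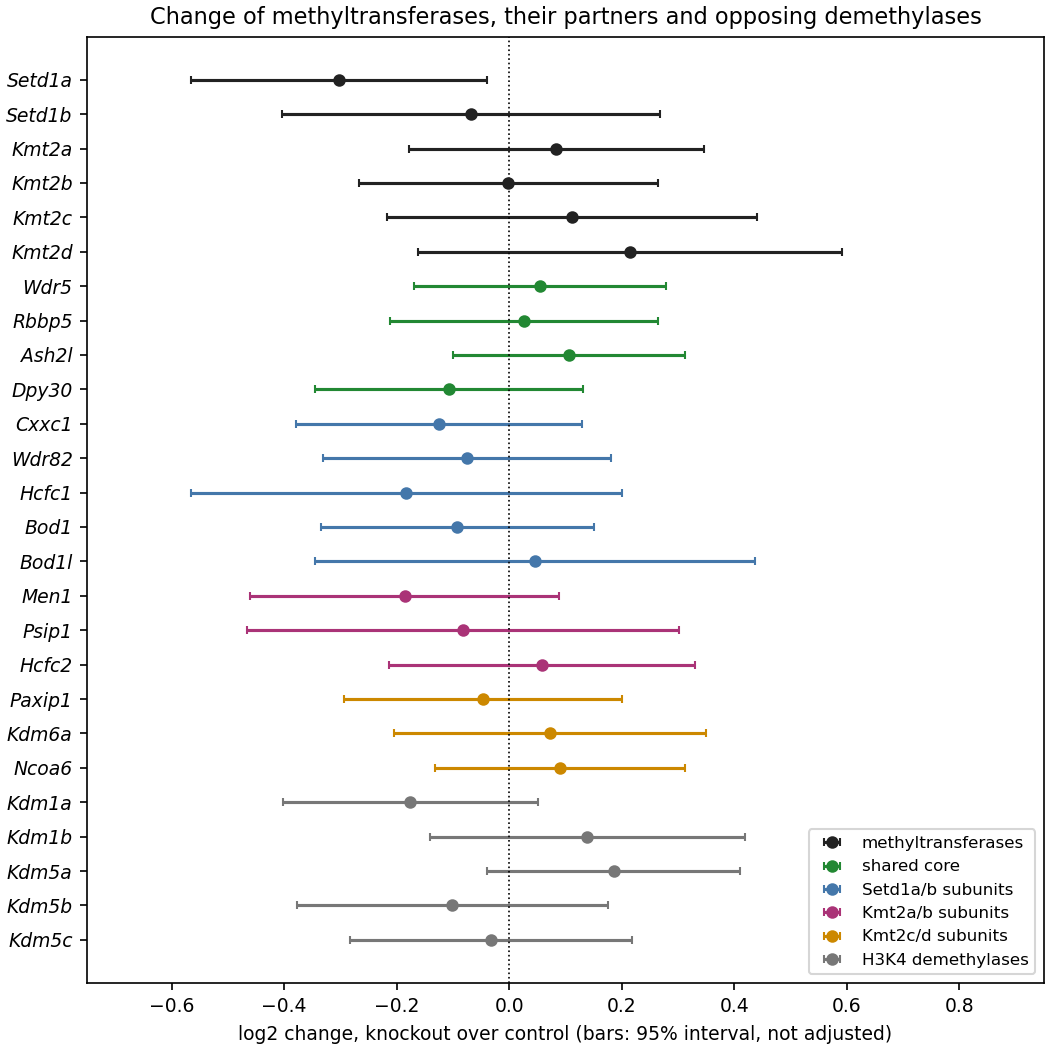
Log2 change of knockout over control, with 95% intervals not adjusted for multiple testing, for the 6 methyltransferases, 15 complex subunits and 5 H3K4 demethylases. The interval of Setd1a ends below 0, and those of the other 25 genes include 0.

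As a wider family, 27 of 28 other SET-domain genes were tested. Of these, 20 had a log2 change below 0 and 7 above, against 49.8% of all tested genes below 0; the median was -0.03, the range -0.29 to 0.19, and 0 passed edgeR's test in either form, against the same 0% and 2.28%. The smallest unadjusted p was that of Nsd3, an H3K36 methyltransferase, which went from 73.3 ± 2.32 to 83.3 ± 0.733 CPM (SD, n = 3; edgeR, adjusted p = 0.558). Setd6, which methylates non-histone proteins, went from 32.5 ± 2.36 to 28.8 ± 1.77 CPM (SD, n = 3; edgeR, adjusted p = 0.709). The log2 change of Setd1a, -0.30, was below that of each of these 27 genes, of which Prdm9, a meiotic H3K4 methyltransferase at under 5 CPM, came closest at -0.29.

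The nearest tested gene on the low-coordinate side of Setd1a, Orai3, also had lower levels in the knockouts. Orai3, which encodes a store-operated calcium channel and ends 1.52 kb before Setd1a, stood at 17.9, 19.6 and 19.6 CPM across the controls and 10.2, 15.2 and 15.8 CPM across the knockouts, without overlap (log2 change -0.47, unadjusted p = 0.0211 and adjusted p = 0.402 in edgeR's test). On the other side, Hsd3b7, a bile acid synthesis enzyme, stood at 1.598 ± 0.143 and 1.90 ± 0.408 CPM (SD, n = 3), with overlap. The neighbours of the other members were also checked. Of their 10 nearest tested genes, AI480526 beside Setd1b had non-overlapping groups, at 2.90 ± 0.433 and 3.79 ± 0.391 CPM (SD, n = 3; edgeR, adjusted p = 0.616), and the other 9 overlapped; 1 of 10 is near the 15.3% of all tested genes.

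Around Setd1a the knockout libraries lay below the controls for several more genes. Within 200 kb there were 18 other tested genes; 7 had all knockout libraries below all controls and 1 had them all above, against 7.77% and 7.49% of all tested genes. The 7 were Orai3, the zinc finger genes Zfp629, Zfp646 and Zfp668, the ciliary gene Ccdc189, the cytokine gene Ctf1 and Bckdk. Zfp646 stood at 67.1, 63.4 and 66.8 CPM across the controls and 47.1, 53.8 and 50.3 CPM across the knockouts. Bckdk, the kinase that restrains branched-chain amino acid breakdown, stood at 132, 145 and 145 CPM across the controls and 99.9, 120.4 and 115.9 CPM across the knockouts. In both, as in Setd1a and Orai3, knockout replicate 1 was the lowest library and the groups were separate. For the rest of the 7, the lowest library is not given here. None of the 18 passed edgeR's test without pairing. The smallest adjusted p in that test was 0.222, for Zfp629, which also had the lowest log2 change of the 18 (-0.48). The adjusted p was 0.251 for Zfp646 and 0.350 for Bckdk. In the same test 4 of the 18 had an unadjusted p under 0.05, against 10% of all tested genes. With the replicate block 1 of the 18 was called, Bckdk (edgeR, adjusted p = 0.0478), against 2.28% of all tested genes.

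The share of genes with all knockout libraries below all controls was 4 of 10 within 100 kb of Setd1a, 11 of 36 within 500 kb and 14 of 65 within 1000 kb. Over chromosome 7 as a whole it was 91 of 965, or 9.43%. The share with all knockout libraries above the controls was 1 of 65 within 1000 kb. The windows, and the genes named within them, were chosen after seeing the data, and the cause of the pattern was not tested.

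**Figure D5:**
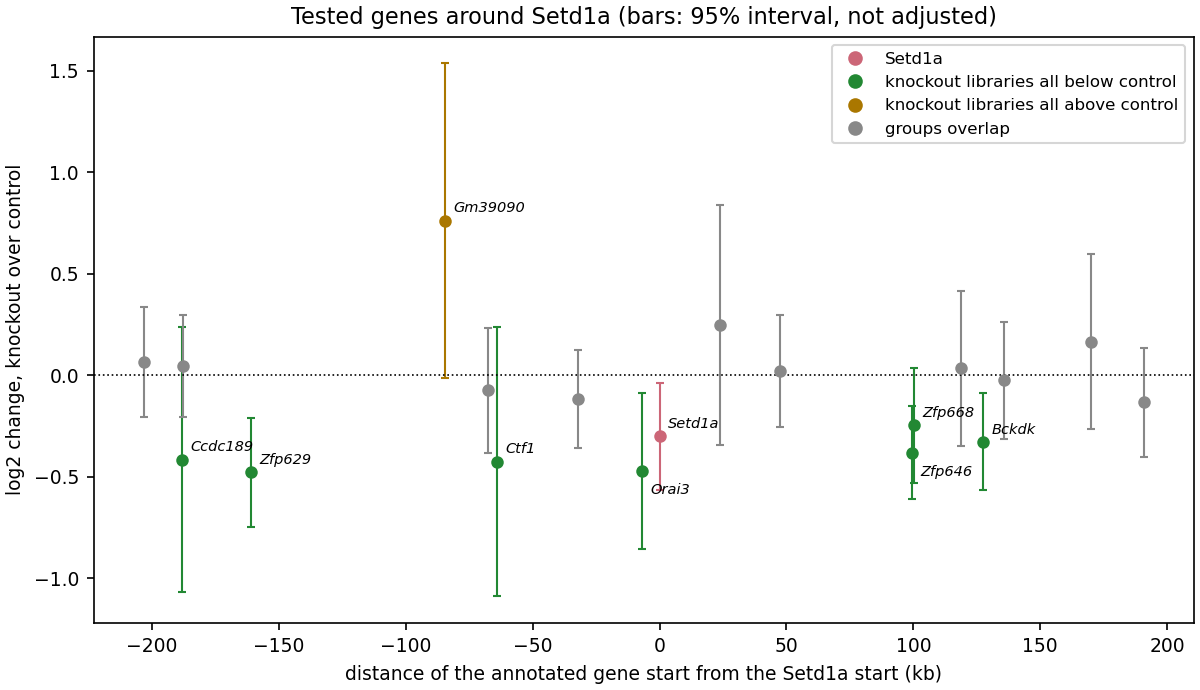
Log2 change of knockout over control, with 95% intervals not adjusted for multiple testing, for Setd1a and the 18 other tested genes within 200 kb, by the distance of each annotated start from the start of Setd1a. The 7 green points, among them Orai3 at -0.47, have all 3 knockout libraries below all 3 controls.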

How the data were processed

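The authors deposited raw, unnormalized read counts by Ensembl gene identifier for the 6 libraries. STAR, featureCounts, DESeq and the mm10 build are named in the submitters' processing notes; the sources used here give no versions, roles, annotation release, strand setting or rule for reads matching several genes. Antisense and overlapping genes therefore cannot be told apart in these counts. Columns were matched to samples by the name in each sample title; the other tag in the titles, of unknown meaning, follows the groups.

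Symbols, exons and coordinates came from GENCODE M21 (GRCm38, the assembly that mm10 names): 55144 of 55471 identifiers matched. Counts were analysed with edgeR 4.0.16 in R 4.3.3 (TMM scaling, edgeR's filter by group, two-sided quasi-likelihood test, Benjamini-Hochberg adjustment over 13044 genes, threshold 0.05), tested first on simulated data. Intervals are 95% and come from the standard error of that fit. Log2 CPM used a prior count of 2. Replicate numbers were checked as pairs: deviations from the group means correlated at 0.15, 0.46 and 0.38 between same-numbered libraries, above the limit of 0.1, so the numbers were treated as pairs in an alternative fit; the pairing comes from the data alone. Replicate libraries differed beyond sampling noise (chi-square per degree of freedom 21.6 to 40.0). Likeness was ranked over protein-coding genes with a mean of at least 5 CPM, without predicted genes. The named genes are the members, listed partners and SET-domain genes, nearest tested neighbours and closest profiles, chosen by a rule; other genes near Setd1a were added later. One gene that the rule names is not reported here. Members and lists were chosen with earlier results of these data known. DESeq2 1.42.0, other scalings and filters, the replicate block and left-out libraries were alternatives.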

Additional observations from a re-analysis of the deposited data

How the results depend on the processing

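The log2 change of Setd1a stayed below 0 and without a call in all 14 alternatives run, at -0.30 with DESeq2 size factors, -0.32 without the low-count filter and -0.31 with the replicate block (paired libraries; adjusted p = 0.0913 in edgeR's test). The adjusted p of Setd1a ranged from 0.0913 to 0.743 over these alternatives. Leaving out 1 library at a time gave ranges of -0.41 to -0.22 for Setd1a, -0.18 to 0.088 for Setd1b, 0.02 to 0.17 for Kmt2a, -0.071 to 0.083 for Kmt2b, 0.01 to 0.24 for Kmt2c and 0.07 to 0.41 for Kmt2d. With the block and without 1 pair at a time, an alternative chosen after seeing the data, the ranges were -0.38 to -0.26 for Setd1a, -0.16 to 0.069 for Setd1b, 0.04 to 0.12 for Kmt2a, -0.08 to 0.11 for Kmt2b, 0.11 to 0.13 for Kmt2c and 0.07 to 0.39 for Kmt2d. Setd1b turned without knockout replicate 3 (0.088) and with the block without pair 3 (0.069), and Kmt2b turned without control replicate 1, control replicate 3 or knockout replicate 3, with the block without pair 3 (0.11), and at a minimum mean of 5 CPM (0.0060); the cause was not tested. With the block the other members were at -0.09 (Setd1b), 0.08 (Kmt2a), 0.00 (Kmt2b), 0.11 (Kmt2c) and 0.18 (Kmt2d), and no call of a member changed.

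Counts of called genes over the whole table did change. They were 0 higher and 0 lower in edgeR's test without pairing (718 and 588 at an unadjusted p under 0.05), 187 and 111 with the replicate block, 93 and 40 with DESeq2, and 62 and 12 without the low-count filter. Leaving out 1 library gave 0 to 30 higher and 0 to 1 lower, the calls coming without knockout replicate 1. With the block and without 1 pair the counts were 507 higher and 207 lower without pair 1, 140 and 54 without pair 2, and 0 and 0 without pair 3. Medians of the partner lists moved by less than the spread within the list under DESeq2 size factors and the block. With 553 to 3329 reads per member and library, the spread between libraries and not counting limits these comparisons for most members.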
